A study of Mus musculus with 1814 samples.

Results

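The cells described here were dark zone germinal center B cells of mice whose deposited cell cycle phase was G1, and KO cells were set against WT cells within that phase. They were chosen by the zone and genotype in the labels of each well and by the phase that the authors assigned. They numbered 86, 48 of them KO and 38 WT, among 1814 wells of the series and among 62 KO and 82 WT dark zone cells that the authors kept. The wells with genotypes stood on 4 plates whose names carry Ccnd3, and each plate held both genotypes. KO cells numbered 13, 7, 15 and 13 on plates 1 to 4, and WT cells numbered 11, 7, 13 and 7. KO, another genotype named TA, and WT all came from germinal centers of mice, in lymph nodes per the protocol, and all were marked as Dec positive. The labels stated neither the altered allele, the agent, the age nor the strain of any of them, and they named no animal. All cells of a genotype were therefore treated as 1 sample, and no test was possible between genotypes. The plates are a description of the technical spread and not replicates of the animals.

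Germinal centers are the sites in lymphoid tissue where activated B cells mutate and select their antibody genes. B cells that received T cell help in the light zone move to the dark zone and divide there, and D-type cyclins drive the step from G1 into S phase together with the kinases CDK4 and CDK6, which phosphorylate the retinoblastoma protein and so release E2F factors. Cyclin D3, encoded by Ccnd3, is the D cyclin that germinal center B cells depend on. Comparing genotypes within 1 phase asks what differs between KO and WT cells that are at the same stage of the cycle.

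In G1, KO cells had less Ccnd3 RNA and more RNA of ribosomal protein genes and of mitochondrial genes than WT cells on each of the 4 plates. Genes of the G1/S transition were lower at the median on every plate although both genotypes were held to G1. Cdk6 was higher on each plate. Cxcr4, Cd79b and Fcgr2b were lower on each plate, a condition for naming them that 5.77% of all genes met. The median of the dark zone list depended on the choice of cells, and over all cells its sign differed between plates. The marker genes showed in addition that some KO wells held RNA of another cell type, which comes first because it touches several of these results.

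Each well was a single sorted cell made into a SmartSeq2 library, in which reads come from along the transcript and PCR copies cannot be recognised. The values below are counts summed over the cells of a genotype and scaled to a common total as CPM, and ratios are log2((KO + 1)/(WT + 1)) of these CPM. Longer transcripts give more counts, so levels are compared between genotypes and not between genes. A gene was called measured at 20 CPM or more in either genotype. Cells held 30851 to 256071 counts in KO (median 145035) and 32037 to 219491 in WT (median 134697), for totals of 7185375 in KO and 4952611 in WT. Intervals given for counts and shares are 95% intervals and cover counting error only, since reads without molecular identifiers are not independent molecules and cells of a genotype share their source.

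The marker genes of the sorted cell type were present in most cells. The median KO cell and the median WT cell each had counts for 8 of 9 B cell genes and for 6 of 9 germinal center genes. Against this, 4 of the 48 KO cells, on plates 1, 3, 4 and 4, had counts for 9, 11, 9 and 10 of 14 T cell genes, and all 4 had counts of Cd3d, Cd3g and Trbc2. Their T cell genes summed to between 6406 and 8023 CPM, they had counts for only 1, 4, 2 and 0 of the 9 B cell genes, and all 4 had no count of Ccnd3. None of the 38 WT cells in G1 had counts for 5 or more T cell genes, which allows a share of up to 7.89% by a floor of 3 cells (exact binomial upper limit 9.25%). Summed per plate, the T cell genes ran from 81.03 to 1473 CPM in KO and from 0 to 237 CPM in WT. Of the 10 T cell genes measured, 9 were at least 2-fold higher in KO, and without these 4 cells 1 of them, at a ratio of 0.84, remained above the threshold of measurement. For this reason most of the gene lists, and the genes they bear on most, are also given below for the 44 KO cells that remain without them. Other KO cells lacked markers as well. Counts for fewer than 2 of the 9 germinal center genes were found in 9 of 48 KO cells (18.8%, exact binomial interval 8.95 to 32.6%), 3 of them being cells with T cell RNA, and in 2 of 38 WT cells (5.26%, 0.644 to 17.7%). Leaving out both kinds of cell left 38 KO and 36 WT cells. Of the 6 myeloid genes in the table, Csf1r, Ly6c2, Tyrobp and Fcer1g were at 0 in both genotypes, and the list summed to 28.9 CPM in KO and 0.808 CPM in WT. That sum came from Cd68, with a count in 4 KO cells and 1 WT cell, and from Lyz2, with a count in 1 KO cell and in no WT cell. No myeloid or erythroid gene reached 20 CPM over all cells, whereas without the 4 cells with T cell RNA Cd68 did, at a ratio of 3.63. The part of such RNA in the other results was not tested.

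**Figure D1:**
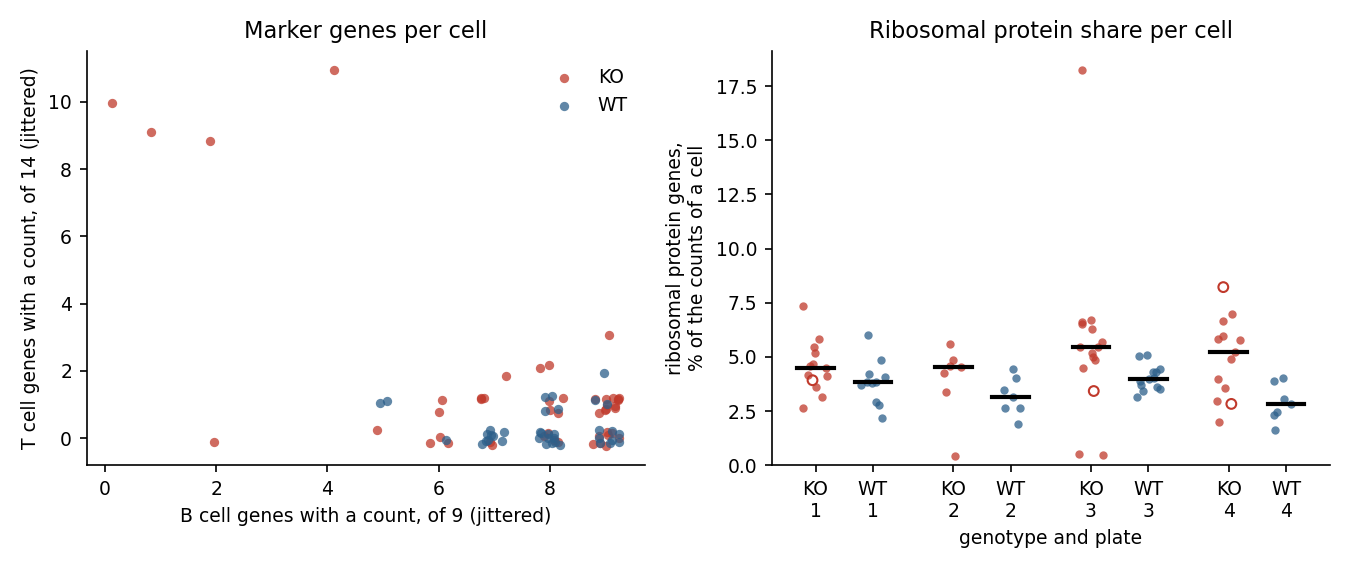
Left, the number of B cell genes (x axis) and T cell genes (y axis) with a count in each G1 dark zone cell, KO in red and WT in blue. Right, the percent of a cell's counts in ribosomal protein genes by genotype and plate, with black bars at the medians and open circles for the 4 KO cells with 9 or more T cell genes. The 4 cells lie apart at the upper left, and the KO median is above the WT median on every plate.

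G1 was the phase of 48 of 62 KO dark zone cells (77.4%, exact binomial interval 65.03 to 87.1%), 23 TA cells (22.8%, 15.02 to 32.2%) and 38 of 82 WT cells (46.3%, 35.3 to 57.7%). The share was higher in KO than in WT on each plate, at 81.3%, 53.8%, 88.2% and 81.3% in KO against 52.4%, 38.9%, 59.1% and 33.3% in WT. Without wells that held T cell RNA it was 75.9% in KO and 46.9% in WT. The phase rests on the deposited S and G2M scores, so that a G1 cell is one with both scores at or below 0. Only 2 KO dark zone cells were in S phase, and no ratios are given for that phase. Just inside the limit, within 0.25 of it, lay 5 KO and 6 WT cells.

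Within G1 the scores still differed between genotypes. The median S score was -0.83 in KO and -0.57 in WT, and it was lower in KO on 4 of 4 plates, by 0.16 to 0.37. The median G2M score was -0.77 in KO and -0.64 in WT, lower in KO on 3 of 4 plates. The authors' score of E2F targets, genes switched on by E2F factors when the retinoblastoma protein is phosphorylated, had a median of -0.24 in KO and -0.13 in WT, and their score of MYC targets had a median of 0.41 in KO and 0.52 in WT, each lower in KO on 3 of 4 plates. KO cells in G1 thus stood further from the S phase limit than WT cells. For this reason the comparison was repeated over cells whose larger score was at or below its median over the 86 cells, which left 29 KO and 14 WT cells.

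Ccnd3 lies on chromosome 17 at 47505051 to 47599691 on the plus strand of mm10. It had 53.03, 209, 120.1 and 59.9 CPM on plates 1 to 4 in KO, against 424, 734, 275 and 442 CPM in WT. Every KO plate was below every WT plate. Pooled over plates the levels were 98.3 CPM in KO and 448 CPM in WT, a log2 ratio of -2.18 (counting interval -2.31 to -2.07) with an SD of 0.86 over the 4 plate ratios. A count of Ccnd3 was found in 15 of 48 KO cells (31.3%, 18.7 to 46.3%) and in 29 of 38 WT cells (76.3%, 59.8 to 88.6%). With every cell thinned to 10000 counts these shares were 27.1% in KO and 68.4% in WT. Among cells with a count, the median was 263 CPM in KO and 453 CPM in WT. The RNA was thus reduced and not absent in cells labelled KO, and without the 4 cells with T cell RNA the ratio was -2.05. Whether the remaining reads come from an altered allele was not tested, because the table gives 1 value per gene.

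Ccnd2 encodes cyclin D2, another D cyclin. It had 11.3, 0, 64.5 and 179.6 CPM on plates 1 to 4 in KO, against 22.9, 0, 0 and 0 CPM in WT. The genotypes overlapped, and the direction differed between plates. Pooled levels were 79.4 CPM in KO and 5.25 CPM in WT, a log2 ratio of 3.69, but the counts came from 7 KO cells and 2 WT cells. Of the KO counts, 3 of the 4 cells with T cell RNA held a large part, at 137.98, 851 and 1294 CPM. Without these 4 cells the pooled log2 ratio was 1.90, from 4 KO cells, and without the cells poor in germinal center markers as well the levels were 7.38 CPM in KO and 3.38 CPM in WT, from 3 KO cells and 1 WT cell, a log2 ratio of 0.93. Counts of both Ccnd2 and Ccnd3 were found in 1 KO cell and 1 WT cell. Ccnd1 had a count in 1 KO cell and in no WT cell. A higher Ccnd2 level in dark zone KO cells of G1 therefore rested on few cells, several of them with T cell RNA. Its ratios in the other cells of the experiment are given further below.

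Cdk6, a kinase partner of the D cyclins, was higher in KO on all 4 plates. Its levels were 219.6, 78.9, 253 and 190.8 CPM in KO and 75.8, 54.7, 88.1 and 83.999 CPM in WT, which overlap only through KO plate 2. The pooled levels of 204 CPM in KO and 76.7 CPM in WT gave a log2 ratio of 1.40 (counting interval 1.25 to 1.58), or 1.33 without the 4 cells. A count was found in 22 of 48 KO cells and in 9 of 38 WT cells. Cdk4, the other kinase, had 127.1 CPM in KO and 98.5 CPM in WT, with a ratio of -1.54 on plate 2 and of 0.26 to 1.53 on the others.

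**Figure D2:**
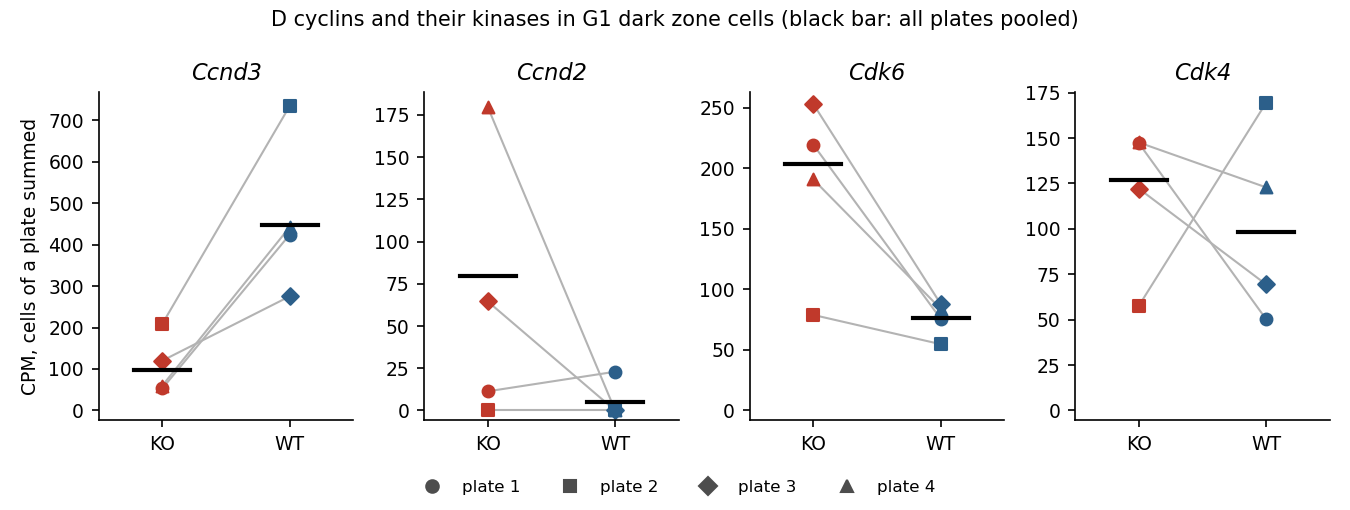
CPM of Ccnd3, Ccnd2, Cdk6 and Cdk4 (y axis, linear, a scale for each gene) in KO and WT cells of G1, 1 symbol per plate with lines joining the genotypes of a plate and black bars for the pooled level. Ccnd3 is lower in KO on every plate and Cdk6 is higher, while Ccnd2 in KO rests on plates 3 and 4.

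Over all genes, 7038 were measured, of which 1285 (18.3%) were 2-fold or more higher in KO and 1450 (20.6%) were 2-fold or more lower. With cells this few such counts include much sampling of single cells. Requiring the same direction on all 4 plates left 335 genes higher (4.76%) and 264 genes lower (3.75%). The median log2 ratio of all measured genes was -0.14, and 44.8% of them were above 0. Without the 4 cells with T cell RNA, 17.6% of measured genes were 2-fold or more higher and 21.3% lower. The gene lists below are read against these shares.

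Ribosomal proteins, the protein components of the ribosome, differed in the same direction with few exceptions. Of 49 genes listed, all measured, 48 had a ratio above 0 against 44.8% of all genes. The threshold of 2-fold was passed by 10 upwards and by 0 downwards, against 18.3% and 20.6% of all genes, and the median log2 ratio was 0.71, with 0.50 to 0.77 on the 4 plates. On 4 of 4 plates 35 of the 49 were higher in KO, against 6.98% of all genes. For 17 of the 49 the lowest KO plate was above the highest WT plate, against 2.63% of all genes.

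Rplp1, a protein of the stalk of the large subunit, had 324, 382, 389 and 425 CPM in KO against 124.3, 58.2, 117.8 and 133.3 CPM in WT, with a pooled log2 ratio of 1.82. Every KO plate lay above every WT plate, and the KO plates varied less among themselves than the gap between the genotypes. Rps25 of the small subunit had 598, 442, 1172 and 398 CPM in KO against 301, 286, 379 and 95.5 CPM in WT (pooled ratio 1.32), and Rpl24 of the large subunit had 411, 562, 552 and 525 CPM in KO against 276, 96.8, 251 and 292 CPM in WT (1.16). Rpl23, also of the large subunit, had the highest levels among these and overlapped by 1 plate, at 1553, 788, 2114 and 706 CPM in KO against 709, 294, 638 and 417 CPM in WT (1.38). At the other end stood Rpl5, at 389.9 CPM in KO and 462 CPM in WT with a ratio of -0.24, and Rpl4, at 2267 CPM in KO and 2262 CPM in WT. Genes of ribosomal proteins have many processed copies in the genome, and reads that fit several copies were divided by the authors' estimate of counts.

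Together the ribosomal protein genes took 4.63%, 4.46%, 5.94% and 4.98% of the counts on plates 1 to 4 in KO, against 3.56%, 3.14%, 4.02% and 2.95% in WT. Cell by cell the share ran from 0.431 to 18.2% in KO with a median of 4.86%, and from 1.65 to 6.01% in WT with a median of 3.74%. The cell at 18.2% and the 3 KO cells below 1% all had counts for fewer than 2 germinal center genes. Over the 38 KO and 36 WT cells left without such cells and without T cell RNA, the median share was 4.96% in KO and 3.69% in WT, and it was higher in KO on each of the 4 plates. The median ratio of the list was 0.70 without the cells with T cell RNA and 0.61 without both kinds of cell, again with 48 of 49 genes above 0. In the G1 cells with scores further from the limit it was 0.57.

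**Figure D3:**
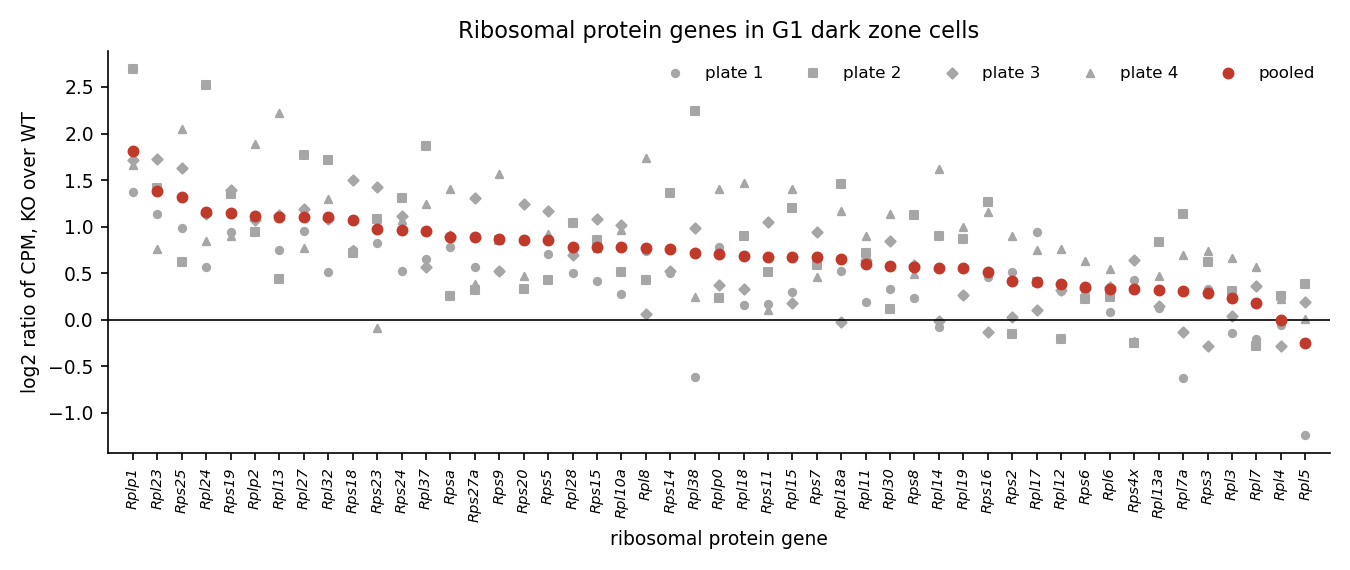
Log2 ratio of CPM, KO over WT (y axis), for each of the 49 ribosomal protein genes (x axis, ordered by the pooled ratio), pooled in red and for each plate in grey. All but Rpl5 lie above 0 when pooled, from Rplp1 at 1.82 downwards.

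Mitochondrial transcripts were higher as well. Of 14 measured, 12 were above 0, against 44.8% of all genes. By 2-fold 1 was higher and 0 lower, against 18.3% and 20.6% of all genes. The median log2 ratio was 0.59, with plate medians from 0.43 to 0.67. Mitochondrial transcripts took 12.6%, 12.7%, 10.5% and 9.46% of counts on plates 1 to 4 in KO and 7.67%, 9.09%, 7.63% and 5.45% in WT. The deposited percent of mitochondrial reads per cell had a median of 10.9% in KO and 6.26% in WT. mt-Co1, a subunit of cytochrome c oxidase, had 20055, 14939, 13558 and 11475 CPM in KO against 9584, 7704, 8904 and 7506 CPM in WT (pooled ratio 0.77), so that the genotypes did not overlap. mt-Nd1, a subunit of complex I, was not higher, at 8213 CPM in KO and 9400.1 CPM in WT. The genes of oxidative phosphorylation encoded in the nucleus had a median of -0.01 over 53 measured. By 2-fold 3 of them were higher and 2 lower, against 18.3% and 20.6% of all genes. The mitochondrial and the nuclear set thus differed in their medians. Without the 4 cells with T cell RNA the mitochondrial median was 0.47. The mitochondrial share is also a common measure of cell damage, and the number of genes detected per cell, each thinned to 10000 counts, was higher in KO on all 4 plates, with a median of 1658 in KO and 1466 in WT. The part of RNA quality in the results on ribosomal and mitochondrial genes was not tested. Leaving mitochondrial genes out of the totals gave a ribosomal median of 0.76. Forward scatter, a measure of cell size, had a median intensity of 101306 in KO and 92551 in WT, higher in KO on 4 of 4 plates, and on 3 of 4 without the cells with T cell RNA.

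Genes of the G1/S transition and of DNA replication were lower. Because the S score is built from genes of this kind, the choice of G1 cells limits how high they can be, and both genotypes were chosen with the same limit. Of 30 measured genes 3 were 2-fold or more higher and 10 lower, against 18.3% and 20.6% of all genes. The median log2 ratio was -0.55 and ran from -0.78 to -0.22 on the plates. Without the cells with T cell RNA it was -0.75, with 12 genes lower, against 21.3% of all genes. Over cells of all phases the median over 47 measured genes was -1.59. There 37 were 2-fold or more lower, against 1122 of 7054 genes in all. That median covers more genes than the 30 of G1. It also covers cells of all phases, whose shares differ between the genotypes, so the 2 medians are not compared. In the G1 cells with scores further from the limit the median of the list was -0.22. Mcm7, a subunit of the replicative helicase, had 65.4, 74.6, 47.3 and 75.1 CPM in KO against 102.96, 138.1, 239 and 94.5 CPM in WT (pooled ratio -1.29), and the genotypes did not overlap. Dut, which keeps uracil out of DNA, had 22.1 CPM in KO and 78.3 CPM in WT (-1.78), and Pola1, the catalytic subunit of DNA polymerase alpha, had 111.8 CPM in KO and 250.0 CPM in WT (-1.15), although Pola1 was at 0.22 in the G1 cells with scores further from the limit.

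Mitotic genes showed no common direction. Of 27 measured 8 were 2-fold or more higher and 9 lower, against 18.3% and 20.6% of all genes. The median was -0.37 pooled and ran from -0.27 to 0.81 on the plates. Ncapg, a subunit of condensin, was higher in KO with 412 CPM against 95.9 CPM in WT (ratio 2.09), as was Cks2, a small partner of cyclin-dependent kinases, with 40.8 CPM in KO and 14.3 CPM in WT (1.45). The phosphatase gene Cdc25b was lower, with 121.6, 81.03, 131.1 and 125.7 CPM in KO against 175.4, 228, 205 and 237 CPM in WT (-0.79), without overlap. Ncapg was found in 16 KO and 5 WT cells in G1.

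Genes of MYC-dependent growth and ribosome biogenesis, which build ribosomes but are not part of them, did not share the rise of the ribosomal protein genes. Of 38 measured 2 were 2-fold or more higher and 9 lower, against 18.3% and 20.6% of all genes, so the number lower was near the background. Below 0 were 29, against 55.2% of all genes. The median was -0.37, against -0.14 for all genes, and plate medians ran from -0.61 to 0.21. Pes1, which processes ribosomal RNA, had 70.7 CPM in KO and 185.5 CPM in WT (ratio -1.38), and Nhp2, a protein of small nucleolar particles, had 36.6 CPM in KO and 58.96 CPM in WT (-0.67). Eif4e, the cap-binding factor of translation, was higher, with 329.5 CPM in KO and 140.5 CPM in WT (1.22). Without the 4 cells with T cell RNA the median was -0.49, with 1 gene higher and 11 lower, against 17.6% and 21.3% of all genes. Proteasome subunits had a median of -0.32 over 31 measured, against -0.14 for all genes, and plate medians ran from -0.47 to 0.04. By 2-fold 0 were higher and 2 lower, against 18.3% and 20.6% of all genes. Among them Psmd6, a subunit of the regulatory particle, had 82.97, 294, 155.2 and 112.96 CPM in KO against 310.3, 554, 510.3 and 382 CPM in WT (-1.63). Its KO plates were all below its WT plates.

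Genes typical of the dark zone had a median of -0.42 pooled, with 0.13 on plate 1 and -0.46, -0.52 and -0.40 on plates 2 to 4. Of 24 measured, 21 were below 0, against 55.2% of all genes. By 2-fold 1 was higher and 5 were lower, Ccnd3 being 1 of the 5, against 18.3% and 20.6% of all genes, so the number lower by 2-fold was near the background. Cxcr4, the chemokine receptor that holds B cells in the dark zone, had 187.2, 172.7, 137.6 and 45.1 CPM in KO against 450.4, 327, 398 and 170.1 CPM in WT. It was lower in KO on each plate, with overlap through WT plate 4, and its pooled ratio was -1.48, or -1.04 without the cells with T cell RNA and those poor in germinal center markers. The intensity of CXCR4 protein at the sort had a median of 1334 in KO and 1415 in WT in arbitrary units, higher in KO on 1 of 4 plates. On plate 4 the medians were 963 in KO and 2293 in WT. That of CD86 protein had a median of 419.5 in KO and 224.5 in WT, higher in KO on 3 of 4 plates. Zone calls may rest on these intensities, which would limit how far they can differ, so they are not set against the RNA. Among the other genes of the list, 2 stood out. Bach2, a repressor that keeps B cells from becoming plasma cells, had 132.1 CPM in KO and 275 CPM in WT (-1.05). Klhl6, an adaptor needed for germinal centers, was the gene of the list that was higher by 2-fold, at 955, 627, 1434 and 989.7 CPM in KO against 479, 87.7, 802 and 435 CPM in WT (1.14). The list of light zone genes had a median of 0.34 with plate medians on both sides of 0, from -1.08 to 0.98. Without the cells with T cell RNA the dark zone median was -0.34, and its plate medians, from -0.47 to -0.11, were all below 0. Without those cells and the cells poor in germinal center markers the dark zone median was -0.19. In the G1 cells with scores further from the limit it was -0.03, so that the difference of the list depended on the choice of cells.

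Genes of the B cell receptor and its coreceptors had a median of -0.44 over 21 measured, with plate medians from -0.66 to -0.06. By 2-fold 0 were higher and 2 lower, against 18.3% and 20.6% of all genes. On 4 of 4 plates 6 of the 21 were lower in KO, against 5.77% of all genes, and for 3 of them every KO plate was below every WT plate, against 1.99% of all genes. Fcgr2b, the inhibitory Fc receptor, was the lowest, at 80.5, 158.9, 50.6 and 4.10 CPM in KO against 342, 372, 251 and 436 CPM in WT (ratio -2.53). Cd79b, a signalling chain of the receptor, had 1349.98, 1851, 1749 and 1408 CPM in KO against 2058, 2282, 3453 and 2097 CPM in WT (-0.73). For both genes every KO plate was below every WT plate. Fewer cells of a type and less RNA per cell cannot be told apart in such sums, and without the 4 cells with T cell RNA the ratios of Fcgr2b and Cd79b were -2.40 and -0.61, while the median of the list was -0.31. The 9 B cell markers as a list had a median of -0.15, close to that of all genes.

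Other lists had medians whose size or sign varied with the plates or cells included. Interferon response genes had 15 of 28 measured members 2-fold or more higher and 2 lower, against 18.3% and 20.6% of all genes, with a median of 1.16. Plate medians were 0, 0, 1.02 and 2.61 on plates 1 to 4, the median was 0.53 without the 4 cells, and over all alternatives it stayed above 0, from 0.34 to 1.61. In the other cells the interferon median was 1.41 for KO over WT in G2M, 1.79 for KO over WT in the light zone and 1.72 for TA over WT in G1. All genes had medians of -0.14, 0.11 and 0.0016 there. Plasma cell genes had a median of 0.41 over 14 measured, 8 of them above 0 and 6 below. By 2-fold 4 were higher and 2 lower, against 18.3% and 20.6% of all genes. The list summed to 11279 CPM in KO and 11312 CPM in WT. Jchain, which joins antibody units, had 5219 CPM in KO and 2265 CPM in WT. Without the cells with T cell RNA and those poor in germinal center markers Jchain had 2748 CPM in KO and 2297 CPM in WT. Myc was counted in 4 KO cells and in no WT cell, at 22.96 CPM in KO and 0 in WT, and this gene was named after its values were seen. Genes of other lists were named next from those with 1 sign on all 4 plates. Of all genes 6.98% were higher and 5.77% lower in KO on all 4. Birc2, an inhibitor of apoptosis, had 220.2, 180.2, 194 and 81.1 CPM in KO against 41.4, 0, 54.8 and 4.20 CPM in WT (ratio 2.44). Trp53inp1, a target of p53, had 251, 149.3, 181.3 and 225 CPM in KO against 37.02, 108.6, 63.6 and 25.2 CPM in WT (1.75). Rbbp7, a histone-binding subunit of chromatin complexes, was lower, with 172.6 CPM in KO and 564 CPM in WT (-1.70), and its plates did not overlap.

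**Figure D4:**
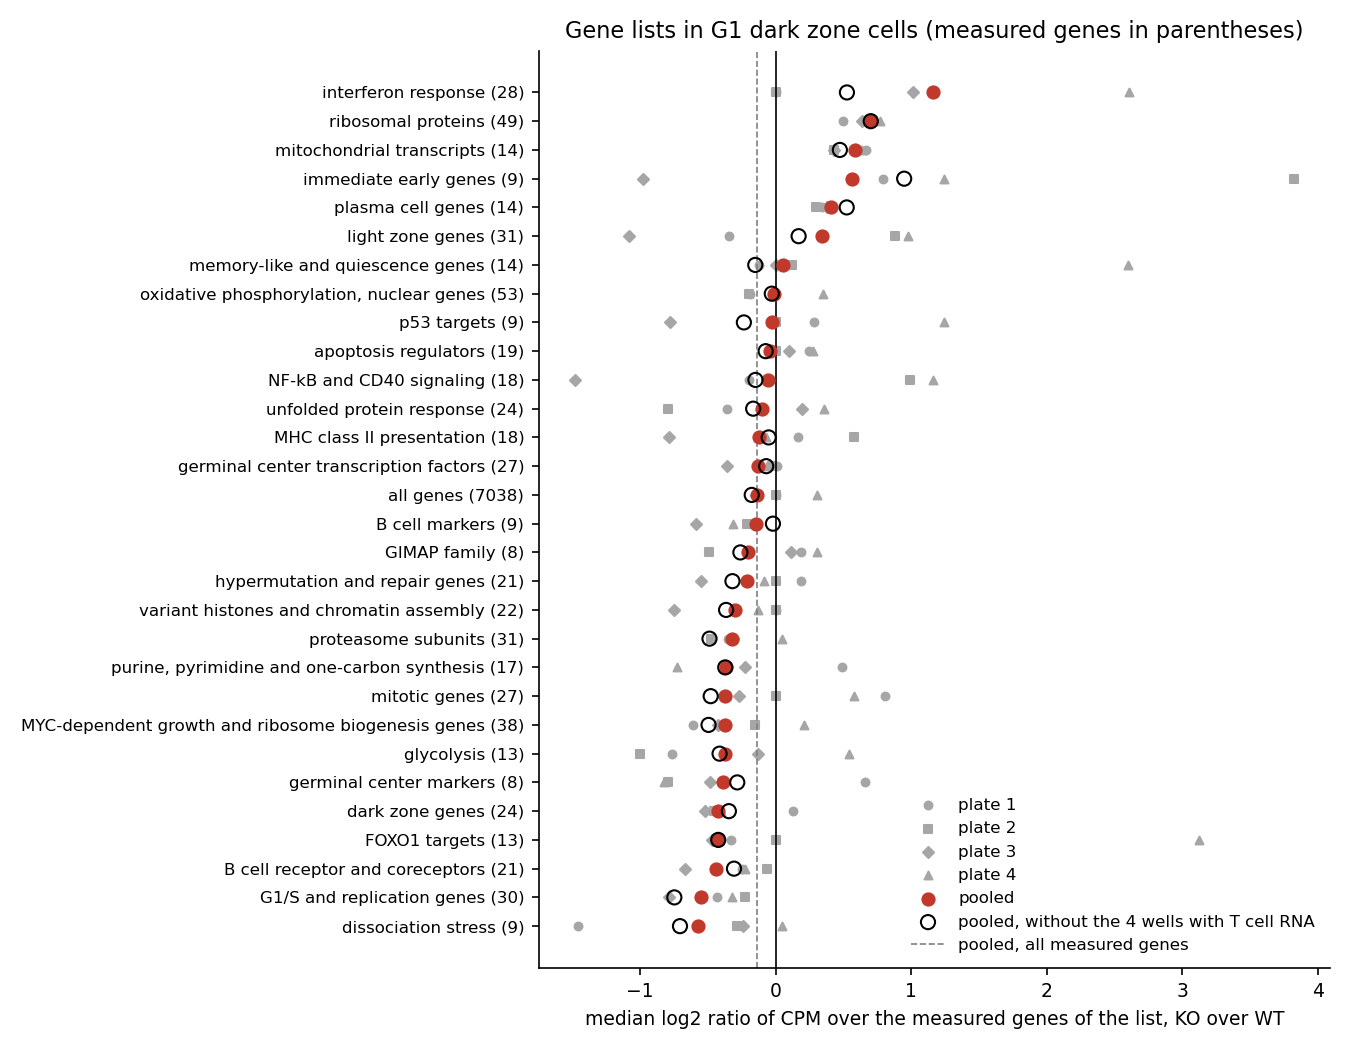
Median log2 ratio of CPM, KO over WT (x axis), for gene lists with 8 or more measured genes (y axis), for each plate in grey, pooled in red and pooled without the 4 KO cells with T cell RNA as open circles. The T cell list itself is not drawn. The dashed line marks the median of all measured genes. Plate medians of ribosomal proteins lie between 0.50 and 0.77, while those of the interferon list spread from 0 to 2.61.

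The largest single differences that had the same sign on all plates and a count in at least 25% of the cells of the higher genotype were mostly of genes found in a minority of cells. Acat2, an enzyme of cholesterol metabolism, had 56.4, 164.1, 79.9 and 70.9 CPM in KO against 0.881, 0, 0 and 0 CPM in WT, from 14 KO cells and 1 WT cell (log2 ratio 6.13). Xrn1, the exonuclease that degrades decapped RNA, had 43.7, 106.6, 13.5 and 61.03 CPM in KO and no count in WT. It was counted in 15 of 48 KO cells (31.3%, 18.7 to 46.3%) and in 0 of 38 WT cells (exact binomial upper limit 9.25%). A floor of 3 counts over the WT cells would give 77.4-fold, but it covers the counting of reads and not the sampling of cells. In G2M Xrn1 had 98.4 CPM in KO and 50.4 CPM in WT, and in light zone G1 106.9 and 127.5 CPM. Pign, an enzyme of membrane anchor synthesis, and Zyx, a protein of focal adhesions, were also without a count in WT dark zone cells of G1, at 43.98 and 41.2 CPM in KO. Traf7, a ubiquitin ligase, had 86.7 CPM in KO and 3.63 CPM in WT (4.24), Wars, the tryptophan tRNA ligase, had 62.1 CPM in KO and 3.43 CPM in WT (3.83), and Ppif, the mitochondrial cyclophilin, had 69.3 CPM in KO and 4.04 CPM in WT. Secisbp2l and Pnkd had 36.2 and 34.8 CPM in KO and 0.606 and 0.808 CPM in WT. Each of these was counted in 12 to 15 of the 48 KO cells.

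A group of loci stood apart by being present in many KO cells at low level. Gm42427, a locus of the biotype TEC on chromosome 5 at 44137980 to 44143271, had 131.7, 128.97, 183.2 and 44.7 CPM in KO against 17.3, 25.9, 1.27 and 0 CPM in WT, with a count in 38 of 48 KO cells and 6 of 38 WT cells (log2 ratio 3.43). The processed pseudogenes Gm8210 on chromosome 1 and Gm13841 on chromosome 5 were each counted in 19 KO cells. Gm8210 was at 13.3, 64.2, 24.3 and 32.1 CPM in KO and had no count in WT, and Gm13841 was at 12.0, 64.2, 32.95 and 32.1 CPM in KO and at 2.57, 0, 0 and 1.64 CPM in WT. Both had the same level on plates 2 and 4 in KO, but not on plates 1 and 3. Whether reads were divided between them was not tested, so their values are uncertain as values of either locus. Gm8210 had no count in WT cells of the dark zone in G2M or of the light zone in G1 either, where KO cells had 41.6 and 27.5 CPM, and it had no count in TA cells of G1. The processed pseudogene Gm10241 was lower, with 5.79 CPM in KO and 31.2 CPM in WT, found in 14 of 48 KO and 26 of 38 WT cells, and it is uncertain in the same way.

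Among genes that were lower in KO on all 4 plates and had a count in at least 25% of the WT cells, Csrp2, a LIM domain protein, had the largest difference, with 5.61, 0, 1.23 and 6.83 CPM in KO against 61.7, 59.9, 116.1 and 64.05 CPM in WT (log2 ratio -4.10). It was counted in 3 of 48 KO cells and 16 of 38 WT cells, and no KO plate approached a WT plate. Nmt1, an N-myristoyltransferase, had 8.73, 5.33, 20.4 and 48.7 CPM in KO against 284, 84.3, 265 and 102.9 CPM in WT (-2.95). Dcaf17, a substrate receptor of a ubiquitin ligase, had 21.3 CPM in KO and 186.97 CPM in WT (-3.08). It was counted in similar shares of cells, 10 of 48 KO (20.8%) and 11 of 38 WT (28.9%). Tsc22d3, a target of glucocorticoids and FOXO factors, had 28.1 CPM in KO and 239.9 CPM in WT (-3.05), from 6 KO and 13 WT cells. Acp5, a phosphatase, had 30.6, 46.9, 15.5 and 10.0 CPM in KO against 59.9, 161.6, 94.5 and 184.8 CPM in WT (-2.43). Cspp1, Prpf39, Mettl6, Thoc3 and Smn1 had ratios from -2.85 to -2.25. Without the 4 cells with T cell RNA the ratios of these 10 genes ran from -4.00 to -2.13. Leaving out 4 of 48 KO cells can raise a pooled KO level only slightly, so these signs could not have changed.

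**Figure D5:**
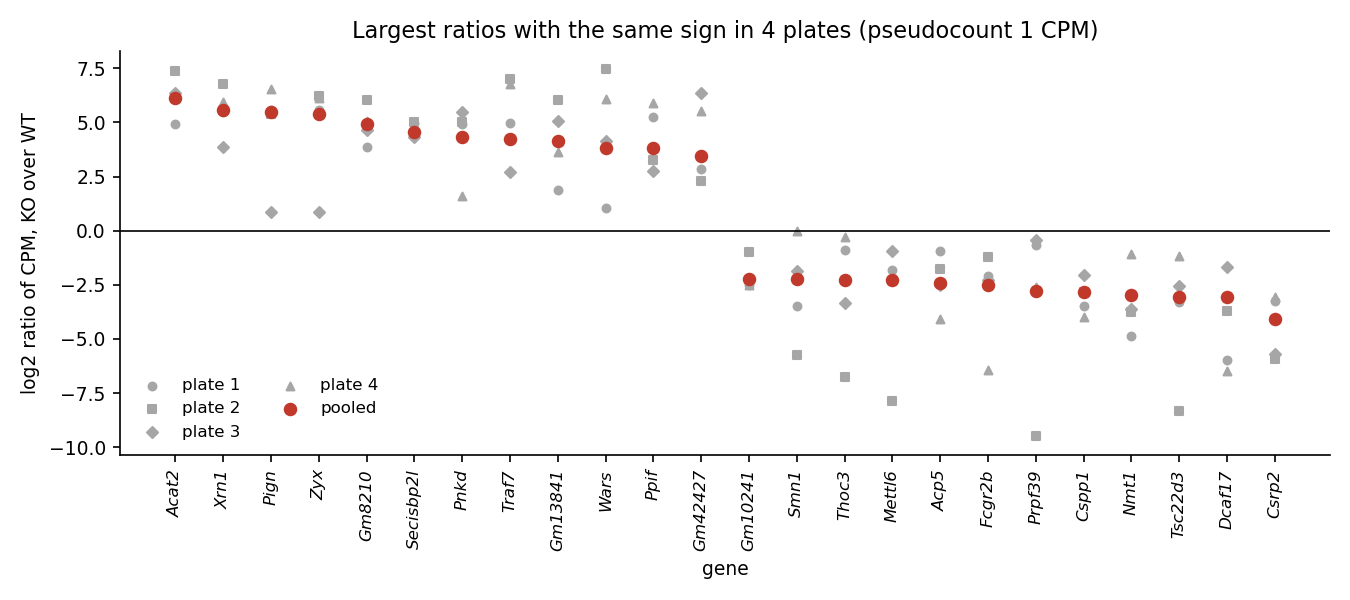
Log2 ratio of CPM, KO over WT (y axis), for the 12 genes with the largest ratios in each direction that had the same sign on all 4 plates (x axis), pooled in red and for each plate in grey. Plate ratios of a gene differ by several log2 units, and for genes without WT counts the ratio depends on the pseudocount of 1 CPM.

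The same values were taken in the other cells of the experiment. KO over WT in dark zone cells of G2M (12 KO and 24 WT cells) and in light zone cells of G1 (45 KO and 15 WT cells) used other cells of both genotypes, whereas TA over WT in dark zone cells of G1 (23 TA cells) used the same 38 WT cells. Counts for 5 or more T cell genes were found in 1 of the 24 WT cells in G2M, in 2 of the 45 KO cells of the light zone and in 1 of the 23 TA cells. Ccnd3 had 61.1 CPM in KO and 447 CPM in WT in G2M, 104.9 CPM in KO and 372 CPM in WT in the light zone, and 343 CPM in TA. The log2 ratio of Ccnd2 was 1.64 in G2M, 3.30 in the light zone and 0.28 for TA over WT. In G2M no KO cell had counts for 5 or more T cell genes. The WT cell of G2M that did had 203.9 CPM of Ccnd2. The part of T cell RNA in the light zone ratio of Ccnd2 was not tested. The ribosomal protein list had a median log2 ratio of 0.54 in G2M with 48 of 49 genes above 0, where 45.4% of all genes were above 0, and of 0.43 in the light zone with 45 of 49 above 0, where 52.6% of all genes were. For TA over WT it was -0.20 with 11 of 49 above 0, where 50.1% of all genes were. Without the cells with T cell RNA these medians were 0.56, 0.45 and -0.23. Higher ribosomal protein RNA in KO than in WT was thus present in dark zone cells of G1 and of G2M and in light zone cells of G1. The difference between phases or zones was not tested.

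Other results of G1 were not all found there. The G1/S list had a median of -0.61 in G2M, -0.74 in the light zone and 0.12 for TA over WT. The mitochondrial transcripts had 0.18, 0.06 and -0.10, and the dark zone list had 0.06, 0.20 and -0.41. Without the cells with T cell RNA the G1/S medians were -0.68, -0.69 and 0.04, the mitochondrial medians 0.25, -0.07 and -0.10, the dark zone medians 0.02, 0.24 and -0.39, and the interferon medians 1.33, 0.83 and 1.17. Cdk6 was lower in KO in G2M, with 53.2 CPM against 186.3 CPM in WT, and had 132.1 CPM in KO and 86.01 CPM in WT in the light zone. Acat2 had 16.6 CPM in KO and 79.1 CPM in WT in G2M, and 76.8 CPM in TA cells of G1, while the WT cells of G1 had 0.202 CPM. Csrp2 had 55.7 CPM in KO and 78.98 CPM in WT in G2M, and 84.3 CPM in TA cells of G1. Fcgr2b had 63.3 CPM in KO and 52.4 CPM in WT in G2M, and 100.1 CPM in KO and 321 CPM in WT in the light zone. Trp53inp1 and Birc2 were higher in KO in both, with 348 and 185.5 CPM in KO against 30.0 and 47.6 CPM in WT in G2M, and 128.6 and 335 CPM in KO against 0 and 50.3 CPM in WT in the light zone.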

How the data were processed

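The deposited combined table, taken up here as the authors left it, gave each well's estimated (expected) counts by gene without scaling, and a larger deposited table per plate gave the same estimated counts (99.99% of values equal within 0.01). The deposited cell table gave, per the file headers, raw counts per cell, the percent of mitochondrial reads, phase scores and target scores, and sort intensities. STAR 2.6, RSEM 1.3.1, Seurat 3.1.4 and mm10 are named per the submitters' processing notes, without roles. Gene positions are from GENCODE M21.

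Expected counts were summed, unrounded, over the cells of each genotype and over each plate, scaled to CPM by the total, and compared with a pseudocount of 1 CPM (Python 3.11.15, pandas 2.3.3, scipy 1.17.1). No doublets were called. Genes named are Ccnd1, Ccnd2, Ccnd3, Cdk4, Cdk6, the 12 largest ratios in each direction at 20 CPM or more with a count in 25% of the cells of the higher genotype and 1 sign on 4 plates, and up to 4 members per list under these conditions; genes outside this rule are examples chosen after their values were seen. The cells and the 38 lists were chosen with earlier results of these data known. The ratio was tested on simulated data. Scaling alternatives used edgeR 4.0.16 (R 4.3.3) for TMM factors and the median of ratios.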

Additional observations from a re-analysis of the deposited data

How the results depend on the processing

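Each result was recomputed under 16 to 20 alternatives, 2 of which were chosen after seeing the data (the stricter G1 limit without cells with T cell RNA, and leaving out those cells and cells with fewer than 2 germinal center genes). No paired analysis was possible because each genotype was 1 sample and no test was run; the ratios within plates are values only. The ratio of Ccnd3 ran from -2.62 to -1.95 when 1 plate was left out and that of Ccnd2 from 2.27 to 6.64. The counts of genes depended on the floor. With a floor of 50 CPM 566 genes were 2-fold or more higher in KO and 799 lower, with 5 CPM 2504 and 2178, and with no floor 3322 and 2551. With equal weight for each plate 2274 genes were higher. When 1 plate was left out, 1369 to 1734 were higher and 1551 to 1815 lower. TMM scaling moved the median of all genes by 0.18, the median of ratios by 0.16 and equal plate weights by 0.34, and the share of higher genes among all 2-fold calls was 46.98%, 56.4%, 55.5% and 61.7% with total, TMM, median-of-ratios and equal plate weights. The ribosomal median ran from 0.57 to 0.86 over all alternatives. Of 34 list medians, 18 took the other sign under at least 1 alternative, among them mitotic genes and FOXO1 targets with equal plate weights (0.58 and 1.22) and germinal center markers and dark zone genes with the stricter G1 limit without T cell RNA (0.31 and 0.0068). Among genes with a 2-fold ratio or more and lists with 4 plate medians on 1 side of 0, reversed were Pola1 under the stricter G1 limit (0.22, and 0.27 without the cells with T cell RNA), the B cell marker median with TMM (0.011) and without plate 3 (0.075; -0.31 to 0.075 over the 4 plates left out in turn), and the plasma cell median with a floor of 50 CPM (-0.37), without plate 3 (-0.10; -0.10 to 0.47 over the plates) and without T cell RNA and marker-poor cells (-0.0070). For these the cause was not tested. Requiring 10000 counts or leaving out cells marked for the light zone removed no cell. With 38 to 48 cells a genotype and 1 sample each, neither spread between animals nor absence of a gene found in few cells can be read from these data.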
